A study of Mus musculus with 8 samples.

Results

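The genes described here are 35 enzymes and regulators of cholesterol and fatty acid synthesis in Treg, the regulatory T cells of the mouse, which are marked by the protein Foxp3 and hold other immune responses in check. They are the genes of these pathways that the SREBP transcription factors control, picked by name, with 21 in a sterol branch and 14 in a fatty acid branch. Of these, 33 were listed among the 19826 genes of the deposited table, and 32 passed the filter on low values, which kept genes with a normalized count of 10 or more in at least 4 of the 8 libraries. Expression of the malic enzyme gene Me1 and the desaturase gene Fads2 was not analysed here, and both enter only the promoter search. RNA-seq was performed on polyadenylated RNA of CD4+ YFP+ cells sorted from spleen and peripheral lymph nodes of untreated C57BL/6 mice. The Pdpk1 KO group comprised 4 libraries from mice of genotype Foxp3 YFP-Cre/+ Pdpk1 FL/FL, and the WT group 4 libraries from mice of genotype Foxp3 YFP-Cre/+ Pdpk1 +/+. Both groups therefore carried 1 Foxp3 allele that also encodes a YFP-tagged Cre recombinase, and differed in whether both copies of Pdpk1 were flanked by loxP sites. Cre is driven by Foxp3, a gene of the X chromosome, so these animals also hold Treg without Cre, which the sort on YFP leaves out. Ages were not given, and neither was whether a library came from 1 mouse or from pooled mice, so each p-value is set against a spread between libraries that may be technical.

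Cholesterol is built from acetyl-CoA through mevalonate, farnesyl diphosphate, squalene and lanosterol, and the same route supplies the lipid groups that anchor signalling proteins to membranes. Fatty acids are built from malonyl-CoA by fatty acid synthase and then elongated, desaturated and activated for use in membranes and stores. SREBP proteins are held in the endoplasmic reticulum by SCAP and INSIG when sterols are plentiful. They travel to the Golgi, are cut and enter the nucleus when sterols are scarce, SREBP2 (gene Srebf2) acting mainly on sterol genes and SREBP1 (gene Srebf1) mainly on fatty acid genes. PDK1, the product of Pdpk1, activates AKT, and AKT and mTORC1 are known to promote SREBP activity. Mevalonate pathway activity is known to be needed for Treg function.

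The DNA before the start sites of 4 members is shown because SREBP is known to act together with the factor NF-Y, whose binding motif is CCAAT. The gene Hmgcs1 is shown for the sterol branch, and Fasn, Acsl3 and Ebp because they are the 3 members that passed the test described below. Each stretch is the 250 bases before the RefSeq start on GRCm38.p6, read 5′ to 3′ on the strand of the gene. Capitals mark CCAAT or its reverse complement ATTGG and, in Hmgcs1, the sterol regulatory element TCACCCCAC.
Hmgcs1 (chr13:119690101-119690350, plus strand): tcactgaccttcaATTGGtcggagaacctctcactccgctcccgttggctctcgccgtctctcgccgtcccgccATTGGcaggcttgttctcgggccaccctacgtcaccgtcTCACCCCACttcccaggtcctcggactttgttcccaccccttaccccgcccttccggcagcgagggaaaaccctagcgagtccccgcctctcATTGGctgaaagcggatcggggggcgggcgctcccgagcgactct
Fasn (chr11:120824548-120824797, minus strand): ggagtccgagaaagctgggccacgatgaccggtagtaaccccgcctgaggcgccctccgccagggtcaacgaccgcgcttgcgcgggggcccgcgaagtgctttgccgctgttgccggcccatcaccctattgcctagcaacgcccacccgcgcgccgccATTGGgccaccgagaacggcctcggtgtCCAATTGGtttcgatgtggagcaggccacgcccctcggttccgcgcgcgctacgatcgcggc
Acsl3 (chr1:78657575-78657824, plus strand): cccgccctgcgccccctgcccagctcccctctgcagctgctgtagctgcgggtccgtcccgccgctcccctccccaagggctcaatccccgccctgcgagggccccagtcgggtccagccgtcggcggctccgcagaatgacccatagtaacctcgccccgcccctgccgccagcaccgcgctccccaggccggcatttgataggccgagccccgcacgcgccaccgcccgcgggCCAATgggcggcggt
Ebp (chrX:8193513-8193762, minus strand): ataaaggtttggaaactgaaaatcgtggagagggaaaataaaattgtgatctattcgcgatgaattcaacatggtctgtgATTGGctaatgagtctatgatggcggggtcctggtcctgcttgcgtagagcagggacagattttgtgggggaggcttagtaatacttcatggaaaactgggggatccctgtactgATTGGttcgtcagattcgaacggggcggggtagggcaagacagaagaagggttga
Counted from the start site, the sterol regulatory element of Hmgcs1 begins at position -137, and its 3 CCAAT motifs begin at -237, -176 and -45. Fasn has 3 CCAAT motifs, of which the last 2 overlap, Ebp has 2 and Acsl3 has 1.

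RefSeq windows of this kind were at hand for 28 of the 35 members and were searched on both strands, a gene counting when any of its windows held the motif. CCAAT was found in 23 of the 28 members (16 of 17 in the sterol branch and 7 of 11 in the fatty acid branch), against 39.5% of 17491 protein-coding genes. These 11 include Me1 and Fads2 and are not the same 11 that were tested for expression. GGGCGG, the motif of the Sp1 factor that also acts with SREBP, was found in 23 of the 28 (16 sterol and 7 fatty acid members), against 45.8% of protein-coding genes. TCACCCCAC, and the looser TCACNCCAC that includes it, was found only in Hmgcs1 among the members searched, against 1.20% of protein-coding genes for the looser form. CACGTG, the E-box, was found in 5 of the 28, against 7.61%. These are matches of letters in a short window. Fdps, Fdft1, Sqle, Stard4, Scd1, Scd2 and Fads1 were not searched.

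The libraries held 17448095 to 26299577 reads, recovered as whole numbers from the normalized counts, and log2 levels correlated across the 13847 tested genes at 0.944 to 0.968 within groups. Summed counts of 7 Treg markers were 56634 to 62194 in Pdpk1 KO and 59259 to 62644 in WT, Foxp3 itself being at 4418 or above in every library. Of these markers, Il2ra was at 21599.6 to 27752 in Pdpk1 KO and 14729 to 16947 in WT, Ikzf2 at 3607 to 4514 in Pdpk1 KO and 8166 to 10132 in WT, and Cd4 at 13352 to 14017 in Pdpk1 KO and 14596 to 17098 in WT, each with no overlap. The median was higher in Pdpk1 KO for 2 of the 7. Pdpk1 as a whole gene was at 2505, 1900.1, 1872 and 1656 normalized counts in Pdpk1 KO and 2599.6, 2374, 1995 and 1923 in WT (log2 change -0.17, exact two-sided permutation p = 0.286), a value that sums all exons and does not check the deletion. Of 18 macrophage markers, 17 had the higher median in Pdpk1 KO. Their summed counts were 1757 to 4399.6 in Pdpk1 KO and 1322 to 2327 in WT, with Csf1r at 145 to 717 in Pdpk1 KO and 14.7 to 205 in WT. Cd14, Fcgr1 and Marco were at 0 in Pdpk1 KO replicate 4, and so were they and Mertk, Spic, Cd163 and Timd4 in WT replicate 1. The exception, Axl, made up much of the WT sums, at 404 to 796 in Pdpk1 KO and 941 to 1296 in WT. The mean log2 level of the macrophage markers was taken over the 16 past the filter, Axl among them. It was 6.46 ± 1.0 in Pdpk1 KO and 4.48 ± 1.32 in WT (SD, n = 4 each, exact two-sided permutation p = 0.0857, 0.171 adjusted over 3 library measures). Pdpk1 KO replicates 2 and 3 and WT replicate 2 were highest. Each called member is therefore also given with this mean in the model as a covariate, and in the 5 libraries that remain without those 3. The part of these transcripts in the results was not otherwise tested. Summed stromal and endothelial markers, nearly all Pecam1, were at 5564 to 6476 in Pdpk1 KO and 4353 to 5255 in WT, with Col1a1 under 30 in every library, and their part in the results was not tested. B cell, CD8 T cell, dendritic cell, NK cell and erythroid marker sums overlapped between groups. The B cell sum was mostly Ighm and the CD8 T cell sum mostly Cd8b1, and both of these genes overlapped. Cd79b was at 101 to 195 in Pdpk1 KO and 300 to 469 in WT, with no overlap. Cd8a was at 35.9 to 55.9 in Pdpk1 KO and 2.25 to 31.3 in WT, also with no overlap. In such bulk samples, a change in the share of cells of a type cannot be told apart from a change in RNA per cell.

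Few genes of either branch passed the test between Pdpk1 KO and WT. Of the 32 tested members, 2 were higher (Fasn and Acsl3, both of the fatty acid branch), 1 lower (Ebp, of the sterol branch) and 29 not past the threshold, by limma on log2(normalized count + 1) with Benjamini-Hochberg adjustment over all 13847 genes and a threshold of 0.05. That is 9.38% of the members, where 9.47% of all tested genes passed (4.41% higher and 5.06% lower). By branch, 0 of 21 sterol members were higher and 1 lower, or 4.76% called, and 2 of 11 fatty acid members were higher and 0 lower, or 18.2%. At an unadjusted p under 0.05, 1 sterol member was higher and 2 lower, and 4 fatty acid members were higher and 2 lower. EdgeR and DESeq2 also called 0 sterol members higher and 0 fatty acid members lower. The number of fatty acid members called higher depended on the tool, with 1 in edgeR and 4 in DESeq2. The tools also differed over all 13847 genes. EdgeR called 599 higher and 655 lower, and DESeq2 848 higher and 908 lower.

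The medians of the branches lay close together beside the range of their members. The median log2 change, Pdpk1 KO minus WT, was 0.05 in the sterol branch (range -0.81 to 0.43) and 0.14 in the fatty acid branch (range -0.32 to 0.72), against -0.01 over all tested genes. The sterol median changed sign without Pdpk1 KO replicate 4, at -0.10, and was 0.22 in the 5 libraries lowest in macrophage markers. An unadjusted p under 0.05 was reached by 28.1% of the members (3 of 21 sterol and 6 of 11 fatty acid), where 23.0% of all tested genes reached it. The libraries of 1 group lay wholly beyond those of the other for Acsl3 and Elovl6 (higher) and Ebp (lower), 9.38% of the members, against 15.3% of all tested genes (7.06% higher and 8.24% lower). For 29 of the 32 members the 95% interval of the log2 change lay between -1 and 1. The other 3 were Fdps (95% interval -0.74 to 1.23), Tm7sf2 (-1.45 to -0.18) and Acsl3 (0.27 to 1.17).

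**Figure D1:**
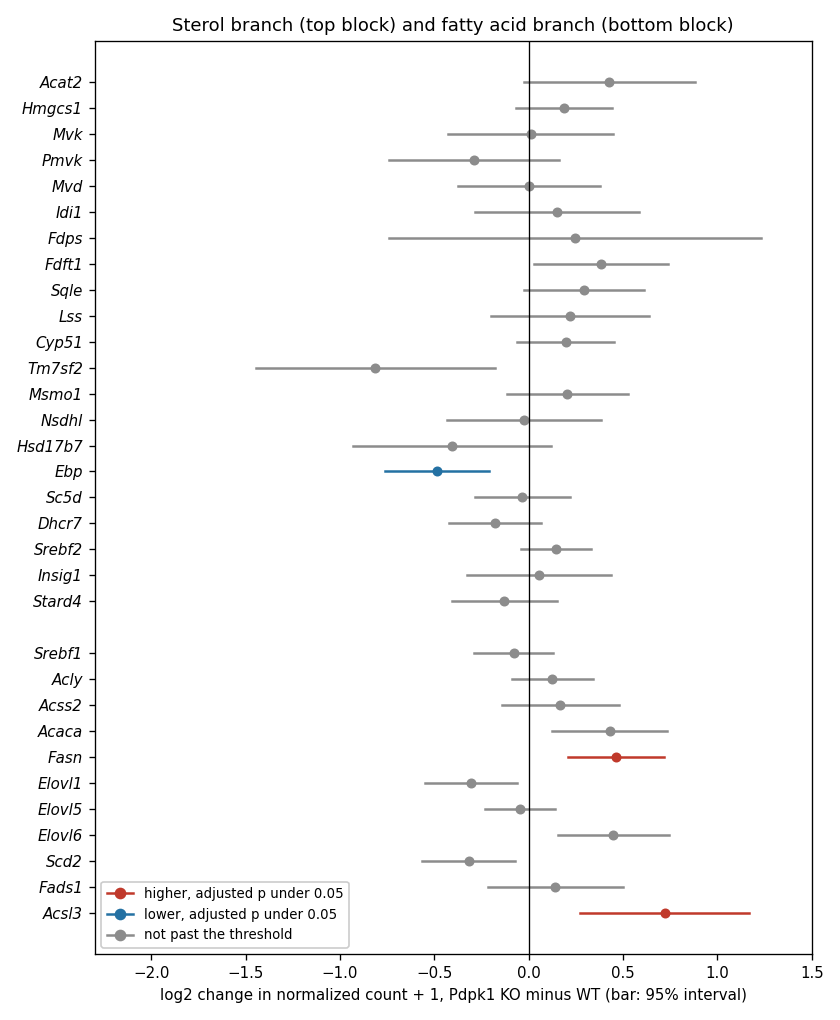
Log2 change in normalized count + 1 (horizontal axis, Pdpk1 KO minus WT) of the 32 tested members, in pathway order with the sterol branch above the fatty acid branch. Points are limma estimates, bars their 95% intervals, and colour marks an adjusted p under 0.05, reached by Fasn, Acsl3 and Ebp.

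Of the 2 genes of chain synthesis, Fasn rose and Acaca was not past the threshold. Fasn encodes fatty acid synthase, which assembles palmitate from acetyl-CoA and malonyl-CoA (ENSMUSG00000025153, chromosome 11, 120805846 to 120824547, minus strand). It had 5823, 4788, 4770.4 and 4125 normalized counts in Pdpk1 KO replicates 1 to 4, against 4200.4, 3579, 3346 and 3014 in WT replicates 1 to 4. The Pdpk1 KO libraries lay above the WT libraries except that Pdpk1 KO replicate 4 was below WT replicate 1. Fasn averaged 4877 ± 702 in Pdpk1 KO and 3535 ± 501 in WT (SD, n = 4 each), and rose by a log2 change of 0.46 ± 0.12 (SE, 1.38-fold, limma adjusted p = 0.0229). It was at 0.56 with the macrophage mean in the model (adjusted p = 0.0849) and at 0.49 in the 5 libraries lowest in those markers (adjusted p = 0.211). Its call was also lost without Pdpk1 KO replicate 1 or 3 or WT replicate 3 or 4 (adjusted p = 0.0536, 0.058, 0.0619 and 0.0849), while its log2 change stayed between 0.37 and 0.55 whichever library was left out.

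Acaca encodes acetyl-CoA carboxylase, which makes the malonyl-CoA that Fasn consumes. It had 1033, 760.5, 744 and 804 normalized counts in Pdpk1 KO replicates 1 to 4, against 749.7, 591, 620.5 and 518 in WT replicates 1 to 4. All Pdpk1 KO libraries but replicate 3 were above the highest WT library. Its log2 change was 0.43 (95% interval 0.13 to 0.73), close to that of Fasn, but not past the threshold (adjusted p = 0.0754). DESeq2 on the recovered reads placed it past the threshold (adjusted p = 0.0469) and edgeR did not (adjusted p = 0.0778). Without WT replicate 1 limma also placed it past the threshold (log2 change 0.53, adjusted p = 0.0337). A processed pseudogene, Gm5182, matches 6118 bases of an Acaca transcript at 99.2% identity and was listed at 5.61 to 49.3 normalized counts in Pdpk1 KO and 1.76 to 37.7 in WT.

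Upstream of chain synthesis, neither gene of acetyl-CoA supply passed the test. Acly encodes ATP citrate lyase, which splits citrate into acetyl-CoA and is a substrate of AKT. It had 6370.3, 6278, 6698 and 5646 normalized counts in Pdpk1 KO replicates 1 to 4, against 6151, 6231, 5806 and 4822 in WT replicates 1 to 4, with a log2 change of 0.12 (95% interval -0.09 to 0.34). Acss2, which makes acetyl-CoA from acetate, ranged from 889.8 to 1394 in Pdpk1 KO and 823 to 1177 in WT, with a log2 change of 0.17 (95% interval -0.14 to 0.48). The groups overlapped for both genes.

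The 3 elongase genes had log2 changes of both signs, none past the threshold. Elovl6 encodes the enzyme that extends palmitate to stearate, the step after Fasn. It had 672, 544, 569 and 510.3 normalized counts in Pdpk1 KO replicates 1 to 4, against 459, 444, 412 and 364 in WT replicates 1 to 4, so that every Pdpk1 KO library was above every WT library. Its log2 change of 0.45 (95% interval 0.15 to 0.74) was just outside the threshold (adjusted p = 0.0546). It was past it with DESeq2 (adjusted p = 0.0241), after quantile normalization (adjusted p = 0.047) and with the filter at a mean of 50 (adjusted p = 0.049). Elovl1, which makes saturated chains of very long length for sphingolipids, had 1012, 1156, 990.2 and 1269 normalized counts in Pdpk1 KO replicates 1 to 4, against 1285, 1389, 1547 and 1246 in WT replicates 1 to 4. Its highest Pdpk1 KO library, replicate 4, lay between the lowest WT libraries, and its log2 change was -0.31 (95% interval -0.55 to -0.06, adjusted p = 0.111). Elovl5, which extends polyunsaturated chains, ranged from 4409 to 4828 in Pdpk1 KO and 4399.9 to 5141 in WT, with a log2 change of -0.05 (95% interval -0.23 to 0.14).

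Among the desaturases, Scd2 encodes a stearoyl-CoA desaturase that makes monounsaturated from saturated chains. It had 2189.8, 2269, 2409 and 3236 normalized counts in Pdpk1 KO replicates 1 to 4, against 3147, 3153, 2913 and 3229 in WT replicates 1 to 4. Pdpk1 KO replicate 4 was the highest of the 8 libraries while the other Pdpk1 KO libraries were below every WT library. The log2 change was -0.32 (95% interval -0.56 to -0.07, adjusted p = 0.105), and -0.44 without Pdpk1 KO replicate 4, past the threshold then (adjusted p = 0.0085). Scd1, its paralogue, did not pass the filter. It was listed at 0.931, 3.29, 0 and 15.4 in Pdpk1 KO and 0, 3.13, 0 and 0 in WT, where a count of 0 allows up to 3 reads or 2.56 to 3.38 normalized counts across libraries (counting error alone). Fads1, a desaturase of polyunsaturated chains, ranged from 331 to 479 in Pdpk1 KO and 303 to 418 in WT (log2 change 0.14, 95% interval -0.22 to 0.50).

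Acsl3 encodes a long-chain acyl-CoA synthetase of the endoplasmic reticulum and lipid droplets, which activates fatty acids (ENSMUSG00000032883, chromosome 1, 78657825 to 78707743, plus strand). It had 347, 459, 331 and 315 normalized counts in Pdpk1 KO replicates 1 to 4, against 191, 292, 157 and 256 in WT replicates 1 to 4. Every Pdpk1 KO library was above every WT library, the nearest being Pdpk1 KO replicate 4 and WT replicate 2. It averaged 363 ± 65.4 in Pdpk1 KO and 224 ± 61.0 in WT (SD, n = 4 each), and rose by a log2 change of 0.72 ± 0.21 (SE, 1.65-fold, limma adjusted p = 0.0428). The change was at 0.32 with the macrophage mean in the model (adjusted p = 0.621) and at 0.74 in the 5 libraries lowest in those markers (adjusted p = 0.191). EdgeR gave 0.70, not past the threshold (adjusted p = 0.0525), and DESeq2 0.70, past it (adjusted p = 0.019). In limma, leaving out any of the libraries except Pdpk1 KO replicate 4 and WT replicate 2 ended the call (adjusted p from 0.0559 to 0.127). Its exons share 244 bases with Utp14b on the same strand, which was listed at 144 to 186 in Pdpk1 KO and 64.3 to 171 in WT, and how shared reads were counted was not given.

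**Figure D2:**
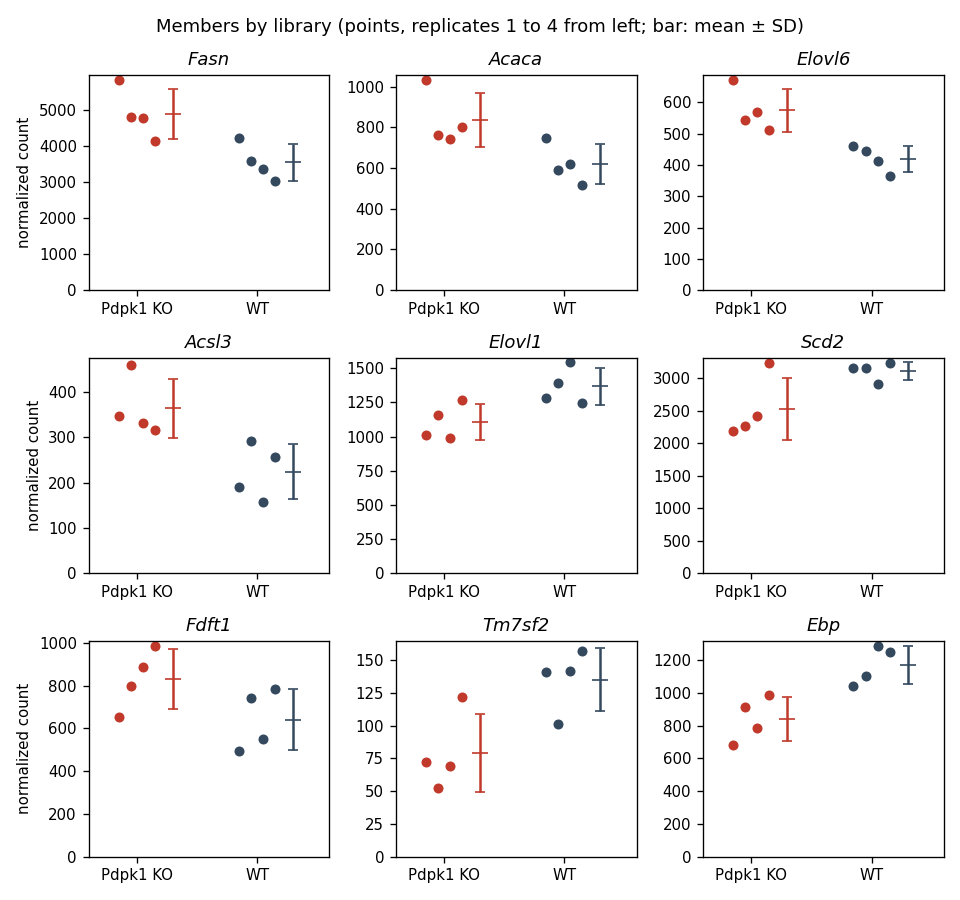
Normalized counts (vertical axis, from 0) in Pdpk1 KO and WT libraries for the 9 members with an unadjusted p under 0.05, chosen after their values were seen. Points are replicates 1 to 4 from left to right and bars the mean ± SD, and the groups are fully apart for Elovl6, Acsl3 and Ebp.

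In the sterol branch, the mevalonate segment held no called member in limma, edgeR or DESeq2, and 0 of its 7 genes reached an unadjusted p under 0.05. Over all tested genes, limma called 9.47% and 23.0% reached that unadjusted p, so counts of 0 among 7 genes say little about the segment. Acat2, the thiolase that makes acetoacetyl-CoA, had 499, 643, 501 and 394 normalized counts in Pdpk1 KO replicates 1 to 4, against 356, 578, 268 and 349.5 in WT replicates 1 to 4. WT replicate 2 lay above all Pdpk1 KO libraries but replicate 2, and the log2 change was 0.43 (95% interval -0.03 to 0.88, adjusted p = 0.25). With the macrophage mean as a covariate it was -0.06, and in the 5 libraries lowest in those markers 0.46. Hmgcs1, which adds the next acetyl unit to give HMG-CoA and whose promoter is shown above, had 1047, 950.1, 973 and 1079 normalized counts in Pdpk1 KO replicates 1 to 4, against 734, 972, 867 and 1012 in WT replicates 1 to 4, a log2 change of 0.18 (95% interval -0.07 to 0.44, adjusted p = 0.397). The groups overlapped for both genes, and 557 exonic bases of Hmgcs1 lie under the antisense gene Gm48342. The kinase gene Mvk, which phosphorylates mevalonate, ranged from 244 to 519.7 in Pdpk1 KO and 290.0 to 381 in WT (log2 change 0.01, 95% interval -0.43 to 0.45). Pmvk, the next kinase, ranged from 160.0 to 286 in Pdpk1 KO and 230.2 to 279 in WT (log2 change -0.29, 95% interval -0.74 to 0.16). Mvd, the decarboxylase that yields isopentenyl diphosphate, had an interval of -0.37 to 0.38 around a log2 change near 0. The groups overlapped for these 3 genes too. Idi1, the isomerase of isopentenyl diphosphate, ranged from 161 to 228 in Pdpk1 KO and 145 to 192 in WT (log2 change 0.15, 95% interval -0.28 to 0.58). Fdps, which makes farnesyl diphosphate, had 35.4, 48.2, 33.7 and 104 normalized counts in Pdpk1 KO replicates 1 to 4, against 21.4, 39.6, 59.8 and 58.8 in WT replicates 1 to 4, the widest relative spread in the branch, with a log2 change of 0.24 (95% interval -0.74 to 1.23).

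All 3 genes that carry farnesyl diphosphate to lanosterol had positive log2 changes, none past the threshold. Fdft1 encodes squalene synthase, the first step that serves sterols alone. It had 653, 798, 889 and 983 normalized counts in Pdpk1 KO replicates 1 to 4, against 493, 740.0, 551 and 782 in WT replicates 1 to 4. The highest WT libraries, replicates 2 and 4, lay within the Pdpk1 KO range, and the log2 change was 0.38 (95% interval 0.03 to 0.74, adjusted p = 0.178). With the macrophage mean as a covariate it was 0.12. Its exons overlap 774 bases of Ctsb on the opposite strand, and the strand setting of the counting was not given. Sqle, the squalene epoxidase, ranged from 691 to 871 in Pdpk1 KO and 479 to 789 in WT (log2 change 0.29, 95% interval -0.02 to 0.61). Lss, the lanosterol synthase, ranged from 247 to 393 in Pdpk1 KO and 219 to 362 in WT (log2 change 0.22, 95% interval -0.20 to 0.63).

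The steps from lanosterol to cholesterol included the only called sterol member. Ebp encodes the isomerase that shifts a double bond within the sterol ring (ENSMUSG00000031168, chromosome X, 8185329 to 8193512, minus strand). It had 679, 911, 786 and 985 normalized counts in Pdpk1 KO replicates 1 to 4, against 1045, 1105, 1284 and 1249.7 in WT replicates 1 to 4. Every Pdpk1 KO library was below every WT library, Pdpk1 KO replicate 4 and WT replicate 1 being nearest. It averaged 840.0 ± 135 in Pdpk1 KO and 1171 ± 114 in WT (SD, n = 4 each), and fell by 0.49 ± 0.13 on the log2 scale (SE, 0.713-fold, limma adjusted p = 0.026). It was at -0.53 with the macrophage mean in the model (adjusted p = 0.147) and at -0.54 in the 5 libraries lowest in those markers (adjusted p = 0.172). The call was lost without Pdpk1 KO replicate 1 or 3 or WT replicate 3 or 4 (adjusted p = 0.0621, 0.0774, 0.0793 and 0.0838), with log2 changes from -0.57 to -0.39 over the libraries left out.

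Tm7sf2, a reductase of the sterol ring, had 72.6, 52.6, 69.6 and 122 normalized counts in Pdpk1 KO replicates 1 to 4, against 141, 101, 142 and 157 in WT replicates 1 to 4. Pdpk1 KO replicate 4 lay within the WT range and the other Pdpk1 KO libraries below it. Its log2 change of -0.81 (95% interval -1.45 to -0.18) was not past the threshold (adjusted p = 0.106), and was -0.34 with the macrophage mean as a covariate. Without Pdpk1 KO replicate 4 it was -1.04 and past the threshold (adjusted p = 0.0375). Its exons share 532 bases with Vps51 on the same strand.

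The other 6 genes of this segment had groups that overlapped. Cyp51, the demethylase that acts first on lanosterol, ranged from 963 to 1278 in Pdpk1 KO and 852 to 1082 in WT (log2 change 0.20, 95% interval -0.06 to 0.45). Msmo1, the methyl sterol oxidase, ranged from 508 to 716 in Pdpk1 KO and 433 to 629 in WT (log2 change 0.20, 95% interval -0.12 to 0.53). Both log2 changes were positive, and those of the remaining 4 were negative. Nsdhl, a sterol dehydrogenase, ranged from 275 to 517 in Pdpk1 KO and 314 to 460.2 in WT (log2 change -0.03, 95% interval -0.43 to 0.38). Hsd17b7, the ketosterol reductase, ranged from 95.6 to 174 in Pdpk1 KO and 145 to 241 in WT (log2 change -0.41, 95% interval -0.93 to 0.12), the widest interval of the 6. Sc5d, a ring desaturase, was at -0.03 (95% interval -0.28 to 0.22), and Dhcr7, which makes cholesterol in the last step of that route, at -0.18 (95% interval -0.42 to 0.06).

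The genes of the control system itself were not past the threshold. Srebf2 had 7693, 6463, 7205 and 6988 normalized counts in Pdpk1 KO replicates 1 to 4, against 6421, 6747, 6347 and 6130.1 in WT replicates 1 to 4. WT replicate 2 lay above Pdpk1 KO replicate 2, and the log2 change was 0.14 (95% interval -0.04 to 0.33, adjusted p = 0.368). Srebf1 had 2656, 2428, 2894 and 3099 normalized counts in Pdpk1 KO replicates 1 to 4, against 2704, 2808, 3082 and 3078 in WT replicates 1 to 4, with a log2 change of -0.08 (95% interval -0.29 to 0.13, adjusted p = 0.693) and groups that overlapped. Insig1, which retains SREBP in the endoplasmic reticulum and is itself an SREBP target, had 927, 851, 586 and 1117 normalized counts in Pdpk1 KO replicates 1 to 4, against 794, 846, 653 and 1013 in WT replicates 1 to 4, with the lowest Pdpk1 KO library below every WT library and the highest above every one. Its log2 change was 0.05 (95% interval -0.33 to 0.44). Stard4, a carrier that moves sterol between membranes, ranged from 601 to 758 in Pdpk1 KO and 668 to 867 in WT (log2 change -0.13, 95% interval -0.41 to 0.15). Whole-gene counts do not tell cut from uncut SREBP protein, nor the Srebf1 transcripts from each other.

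Libraries of the same group differed in the sterol branch as a whole. Pdpk1 KO replicate 4 was the highest Pdpk1 KO library for 16 of 21 sterol members, and Pdpk1 KO replicate 2 the lowest for 11. In WT, replicate 4 was highest for 9 of 21 and lowest for 1. The mean log2 level of the 21 sterol members was 8.91, 8.83, 8.95 and 9.19 in Pdpk1 KO replicates 1 to 4 and 8.88, 9.01, 8.88 and 9.08 in WT replicates 1 to 4, so that Pdpk1 KO held both the highest and the lowest library. For the 11 fatty acid members it was 10.57, 10.52, 10.50 and 10.59 in Pdpk1 KO and 10.37, 10.45, 10.40 and 10.32 in WT, with every Pdpk1 KO library above every WT library. The sterol mean minus the fatty acid mean was -1.67, -1.69, -1.55 and -1.40 in Pdpk1 KO and -1.49, -1.44, -1.52 and -1.24 in WT, where the groups overlapped. No p is given for these means because the members were chosen with results known. The median SD of a member's log2 level within groups was 0.29 in the sterol branch and 0.187 in the fatty acid branch, against 0.258 over all tested genes.

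**Figure D3:**
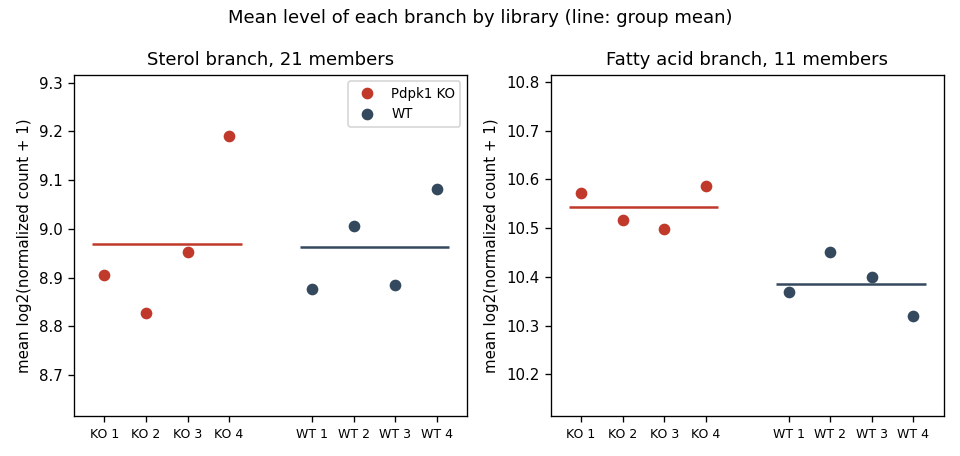
Mean log2(normalized count + 1) of the 21 sterol members and of the 11 tested fatty acid members in each library (points), with the group means as lines. Pdpk1 KO replicate 4 stands highest for sterols at 9.19, and the fatty acid means of the groups do not overlap.

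Set per length, the members covered a wide range of levels. Normalized counts per kb of annotated exon were highest for Elovl5, at 1319 ± 51.1 in Pdpk1 KO and 1366 ± 101 in WT, Acly, at 1184 ± 83.3 in Pdpk1 KO and 1089.7 ± 123 in WT, and Srebf2, at 987 ± 71.0 in Pdpk1 KO and 892 ± 35.6 in WT (SD, n = 4 each). The median of tested genes was 103 normalized counts per kb. Fasn stood at 445 ± 64.1 in Pdpk1 KO and 323 ± 45.7 in WT, and Srebf1 at 492 ± 51.6 in Pdpk1 KO and 518 ± 34.0 in WT. In the sterol branch Ebp, at 364 ± 58.6 in Pdpk1 KO and 507 ± 49.5 in WT, and Mvd, at 376 ± 88.4 in Pdpk1 KO and 372 ± 69.3 in WT, were the highest enzymes. Lowest by the WT mean were Lss, at 31.2 ± 5.85 in Pdpk1 KO and 26.9 ± 5.57 in WT, Tm7sf2, at 18.0 ± 6.79 in Pdpk1 KO and 30.7 ± 5.44 in WT, and Fdps, at 13.2 ± 7.88 in Pdpk1 KO and 10.7 ± 4.33 in WT. Exon lengths merge all annotated transcripts, so genes with long minor transcripts are placed low. Fdps is uncertain in a further way, since 4 processed pseudogenes match it at 96.1% identity or more over 605 bases or more, and its exons share 1124 bases with Gm43738 on the same strand. Idi1, Elovl6, Fdft1, Acat2 and Scd2 each have a copy elsewhere at 95% identity or more over at least 200 bases, and their reads may be shared with it. Acat2 also matches Tcp1 over 445 bases at 98.7% identity. Tcp1 was listed at 4307 to 5089 normalized counts in Pdpk1 KO and 3719 to 4432 in WT. Whether its reads entered the Acat2 counts was not tested.

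**Figure D4:**
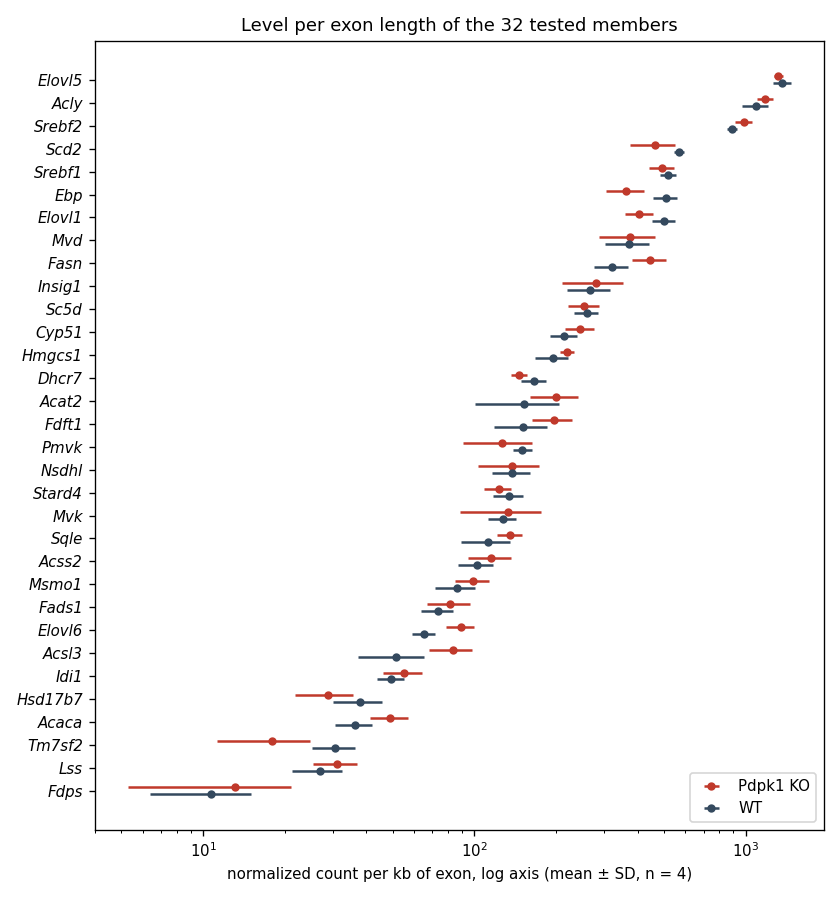
Normalized counts per kb of annotated exon (horizontal log axis) of the 32 tested members, Pdpk1 KO above WT in each row, points being means of 4 libraries and bars the SD. Elovl5, Acly and Srebf2 lead, and Fdps is lowest.

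With the macrophage markers taken into account, no member was past the threshold. This held with their mean in the model and also in the 5 libraries lowest in them, settings under which 223 and 167 of all tested genes were higher and 289 and 305 lower. The log2 change of Acaca was 0.67 with the covariate (adjusted p = 0.0562) and 0.55 without the 3 libraries (adjusted p = 0.193). Elovl6 was at 0.50 and 0.52 in the same order. With the covariate, log2 changes of Fasn, Acaca, Elovl6 and Ebp were larger in size than with all 8 libraries unadjusted. Those of Acsl3, Fdft1, Tm7sf2 and Scd2 were smaller, and that of Elovl1 was nearly the same. In the 5 libraries the change of Acsl3 was not smaller. The covariate was itself higher in Pdpk1 KO (mean 6.46, against 4.48 in WT), and the cause of these differences was not tested. Scd2 was at -0.25 with the covariate and -0.22 in the 5 libraries, and Elovl1 at -0.30 and -0.26 in the same order.

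**Figure D5:**
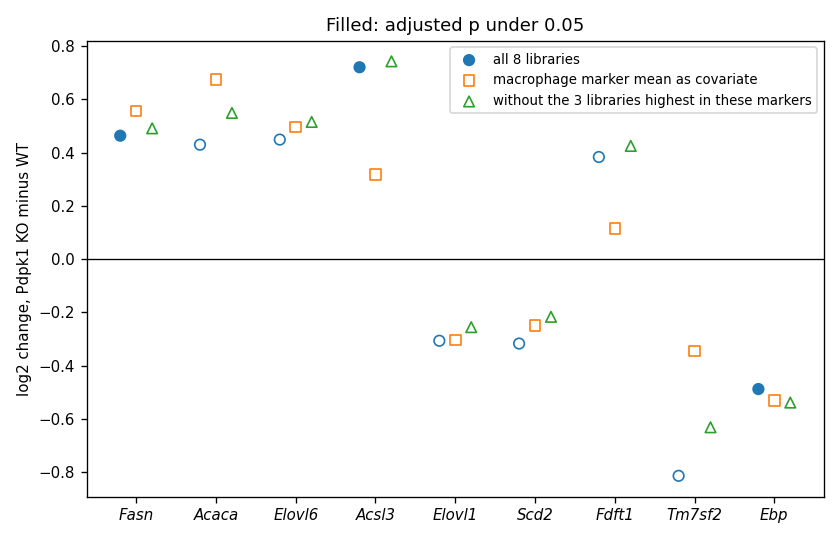
Log2 change (vertical axis, Pdpk1 KO minus WT) of the 9 members with an unadjusted p under 0.05 under 3 settings. Filled symbols mark an adjusted p under 0.05, reached only by Fasn, Acsl3 and Ebp with all 8 libraries and no covariate.

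Around the members, genes of SREBP processing and of sterol storage and export were also tested. Counts in these small lists stand beside the 9.47% of all tested genes that were called and the 23.0% that reached an unadjusted p under 0.05. The lists are too short to be set against each other. Of 11 genes of SREBP processing and sterol sensing, including Scap and the protease genes Mbtps1 and Mbtps2, 0 were higher and 0 lower in limma, and 0 in edgeR, in DESeq2 and at an unadjusted p under 0.05, with a median log2 change of 0.07. Rnf145, a ubiquitin ligase gene among the most abundant of them, was at 4566 ± 509.9 in Pdpk1 KO and 4117 ± 332 in WT (SD, n = 4 each, log2 change 0.15, adjusted p = 0.432). Of 13 tested genes of sterol uptake, trafficking and storage, 2 were higher and 2 lower (median 0.09). Soat1 encodes the acyltransferase that turns cholesterol into stored esters. It had 814, 819.7, 916 and 815 normalized counts in Pdpk1 KO replicates 1 to 4, against 1279.5, 1369, 1212 and 1311 in WT replicates 1 to 4, every Pdpk1 KO library being below every WT library, and fell by 0.62 on the log2 scale (adjusted p = 0.000959). It was also past the threshold in both macrophage settings (log2 change -0.70 with the macrophage mean in the model (adjusted p = 0.011) and -0.64 in the 5 libraries lowest in those markers (adjusted p = 0.035)). Gramd1b, which carries sterol from the plasma membrane to the endoplasmic reticulum, fell, at 1284 ± 196 in Pdpk1 KO and 1994 ± 285 in WT (SD, n = 4 each, log2 change -0.64, adjusted p = 0.00542). Npc2, which carries sterol out of lysosomes, rose, at 10225 ± 738 in Pdpk1 KO and 7757 ± 1215 in WT (SD, n = 4 each, log2 change 0.41, adjusted p = 0.0352). Neither Gramd1b nor Npc2 was past the threshold in either macrophage setting, and Gramd1b was at -0.40 and Npc2 at 0.25 with the covariate. In the 5 libraries Gramd1b was at -0.52 and Npc2 at 0.44.

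LXR is the nuclear receptor that senses sterols in excess and drives their export. Of 8 genes listed as LXR, its partners and its targets, 1 was higher and 0 lower, as in edgeR and DESeq2 (median 0.13). Abca1, the sterol exporter, had 1191, 752, 1013 and 799.6 normalized counts in Pdpk1 KO replicates 1 to 4, against 636, 559, 545 and 605 in WT replicates 1 to 4. Every Pdpk1 KO library was above every WT library, and the log2 change was 0.66 (adjusted p = 0.00923). Macrophages express Abca1 too, and the call was lost in 1 of the 2 macrophage settings (log2 change 0.80 with the macrophage mean in the model (adjusted p = 0.0374) and 0.72 in the 5 libraries lowest in those markers (adjusted p = 0.0738)). Of 17 further genes of fatty acid synthesis and elongation, 1 was higher and 1 lower (median -0.03). Acss1, which makes acetyl-CoA from acetate in mitochondria, rose, at 1469.6 ± 129 in Pdpk1 KO and 1049 ± 115 in WT (SD, n = 4 each, log2 change 0.49, adjusted p = 0.0106). Hacd3, a dehydratase of the elongation cycle, fell, at 1461 ± 58.4 in Pdpk1 KO and 2004 ± 197 in WT (SD, n = 4 each, log2 change -0.45, adjusted p = 0.00758). With the covariate neither was past the threshold, with Acss1 at 0.43 and Hacd3 at -0.45. In the 5 libraries Acss1 was at 0.63 and past it (adjusted p = 0.0489), and Hacd3 was at -0.49 and was not (adjusted p = 0.108). Of 15 further genes of sterol and prenyl synthesis, 1 was higher and 0 lower, as in edgeR and DESeq2 (median 0.05). That call was lost in both macrophage settings. At an unadjusted p under 0.05, 2 of the 15 were higher and 2 lower, where 23.0% of all tested genes reached it.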

How the data were processed

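Values in the deposited table are a signal: reads counted per gene, each library then scaled by the authors with its own size factor. Per the submitters' processing notes, the tools were STAR 2.7.6a, Trimmomatic 0.39, DESeq2 1.21, SAMtools 1.11 and, from Subread 2.0.1, featureCounts, on build GRCm38, with no roles, strand setting or annotation release given. Dividing each library by its smallest positive value gave whole reads for 100% of values (tolerance 0.001). Of 19826 Ensembl IDs, 19775 matched a symbol in GENCODE M21, whose positions and exon lengths are used. Depth was 17448095 to 26299577 reads per library.

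Genes with a normalized count of 10 or more in at least 4 libraries (13847) were compared on log2(normalized count + 1) with limma 3.58.1 in R 4.3.3 (eBayes with trend, two-sided, no replicate term). Log2 changes and folds are Pdpk1 KO minus or over WT on that scale, which understates changes of low genes. edgeR 4.0.16 and DESeq2 1.42.0 were run on the recovered reads. Fits were also run on simulated counts to check the code. How well they detect changes of the size seen here is not given. Members and lists were chosen with earlier results of these data known. All members are described. From each further list, up to 4 called genes of smallest adjusted p were named, or the 2 most abundant where none was called. Some genes that this rule selects are not reported here but are in the counts. Copies of the members were sought with blastn (identity of 95% or more over at least 200 bases). Promoter sequences are from RefSeq (GRCm38.p6). The exact permutation test covers the 70 assignments of libraries, with a smallest p of 0.0286. Same-numbered libraries are not stated to be paired.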

Additional observations from a re-analysis of the deposited data

How the results depend on the processing

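Fasn, Acsl3 and Ebp kept their direction under all 19 alternatives, and their calls under 13, 10 and 13 of them. Pseudocounts of 0.5 and 4, no filter, and TMM factors left the same 3 members called. EdgeR called 1 fatty acid member higher, among 599 of all tested genes, and DESeq2 4, among 848. With the replicate number as a block, 1 sterol member was higher and 2 lower, 4 fatty acid members were higher and 2 lower, and 1243 of all tested genes were higher and 1292 lower. Same-numbered libraries correlated in their deviations at 0.0481 to 0.217, not over 0.1 in every pair, and different-numbered libraries at -0.156 to 0.109. Each library correlated best with its own number except Pdpk1 KO replicate 2 and WT replicate 3, which correlated best with each other. Whether the numbers mark pairs is thus undecided, and the main fit did not take them as pairs. The choice matters, since with the block the limma adjusted p of Fasn was 9.22e-05. The ratio of Fasn between same-numbered libraries was 1.39, 1.34, 1.43 and 1.37.

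With the macrophage mean as a covariate, 0 sterol members were lower and 0 fatty acid members higher, among 223 genes higher and 289 lower in all. Without the 3 libraries highest in these markers, an alternative added after seeing the data, the counts were 0 and 0, among 167 and 305, and the sterol median was 0.22. That fit had 2 Pdpk1 KO and 3 WT libraries. Leaving out 1 library at a time gave 0 to 2 sterol members lower, 0 to 0 higher, 0 to 2 fatty acid members higher and 0 to 1 lower, with 389 to 588 of all genes higher and 495 to 724 lower. The sterol median then ran from -0.10 to 0.17, lowest without Pdpk1 KO replicate 4, and the fatty acid median from 0.070 to 0.22, lowest without WT replicate 1 and highest without WT replicate 3. The cause of these differences was not tested.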

Other observations

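Of 17 fatty acid oxidation genes, 0 were higher and 2 lower in limma, where 9.47% of all tested genes were called, with a median log2 change of -0.09. Eci1, an isomerase that prepares unsaturated chains for oxidation in mitochondria, had 381, 455, 469 and 538 normalized counts in Pdpk1 KO replicates 1 to 4, against 591, 683, 952 and 773 in WT replicates 1 to 4. Every Pdpk1 KO library was below every WT library, and Eci1 fell by 0.69 on the log2 scale (limma adjusted p = 0.0115). Slc25a20, which carries acyl-carnitines into mitochondria, had 811, 618, 671 and 746 normalized counts in Pdpk1 KO replicates 1 to 4, against 1114, 908, 922 and 868 in WT replicates 1 to 4, again with no overlap, and fell by 0.42 (limma adjusted p = 0.0446). With the macrophage mean in the model Eci1 was at -0.74 (adjusted p = 0.0933) and Slc25a20 at -0.20 (adjusted p = 0.609). At an unadjusted p under 0.05, 1 gene of this list was higher and 2 lower, where 23.0% of all tested genes reached it. EdgeR and DESeq2 also called 1 higher and 2 lower.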
